A study of Homo sapiens with 12 samples.

Results

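The transcriptomes of cells with induced p21 and of cells with induced p16 were set directly against each other: 3 libraries of 5-day p21 induction against 3 of 5-day p16 induction, which are 6 of the 12 samples of the study. Members were taken by their titles, and the libraries of p16 cells that received the mTOR inhibitor Torin2 were not among them. All groups were MCF10-A, an established and non-tumorigenic human breast epithelial line, at passage 12 to 15. Each carried a construct that doxycycline switches on, coding for mVenus (a yellow fluorescent protein) joined to p16, for mVenus joined to p21, or for mVenus alone. Each well was seeded with 150000 cells, doxycycline at 50 ng/ml followed after 20 hours, and the cells were harvested after 5 days with medium renewed every 48 hours. All groups grew in horse serum with EGF, insulin, hydrocortisone and cholera toxin, and the p16 and p21 cells also shared the solvent DMSO, as the treatment protocol has it. The 3 libraries of mVenus cells serve here as a reference level. The series text calls the 3 libraries of a group biological replicates. The constructs sit in separately made cells, and the labels do not say whether these were clones, so the induced protein and any difference between the cell lines cannot be told apart.

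Both proteins are inhibitors of cyclin-dependent kinases (CDKs). p16 binds CDK4 and CDK6 and keeps cyclin D from activating them, which leaves the retinoblastoma protein RB1 unphosphorylated and E2F target genes silent. p21 binds cyclin-CDK complexes more broadly, CDK2 among them, also binds the replication clamp PCNA, and is itself a transcriptional target of p53. Prolonged expression of either is widely used to drive cells into senescence, a lasting arrest with an altered secretome, enlarged lysosomes and loss of lamin B1.

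Values are CPM (the count of a gene relative to the total count of its library) by library, scaled with the TMM method, which compare a gene between libraries and not genes of different length. Fold changes are log2, p21 against p16, ± SE, from the quasi-likelihood test of edgeR fitted over 14504 genes, and "higher", "lower", "rose" and "fell" in p21 are used of genes with a Benjamini-Hochberg adjusted p under 0.05. At that threshold 54.3% of genes differed. Of all genes tested, 3944 (27.2%) were higher and 3938 (27.2%) lower in p21, and 887 (6.12%) and 743 (5.12%) differed by 2-fold or more. Counts of list members given below are to be read beside these shares. In 8543 genes (58.9%) the 3 p21 libraries and the 3 p16 libraries did not overlap, so a lack of overlap alone was common. The 6 values printed for a gene below likewise did not overlap between the groups, with 3 exceptions (RB1, GLB1 and IFIT1) that are named as such. The median log2 fold change over all genes tested was -0.01, with quartiles of -0.27 and 0.28. The p16 libraries held 15287580 to 16607565 counts and the p21 libraries 13649321 to 16269274, and across genes the log2 CPM of libraries within a group gave r of 0.992 to 0.993. The first principal component of the 6 libraries held 78.6% of the variance and separated p21 from p16. Mitochondrially encoded transcripts took 6.49 ± 0.46% of counts in p21 and 6.62 ± 0.29% in p16 (SD, n = 3 each, exact two-sided permutation p = 0.8, with 0.1 the smallest p possible).

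**Figure D1:**
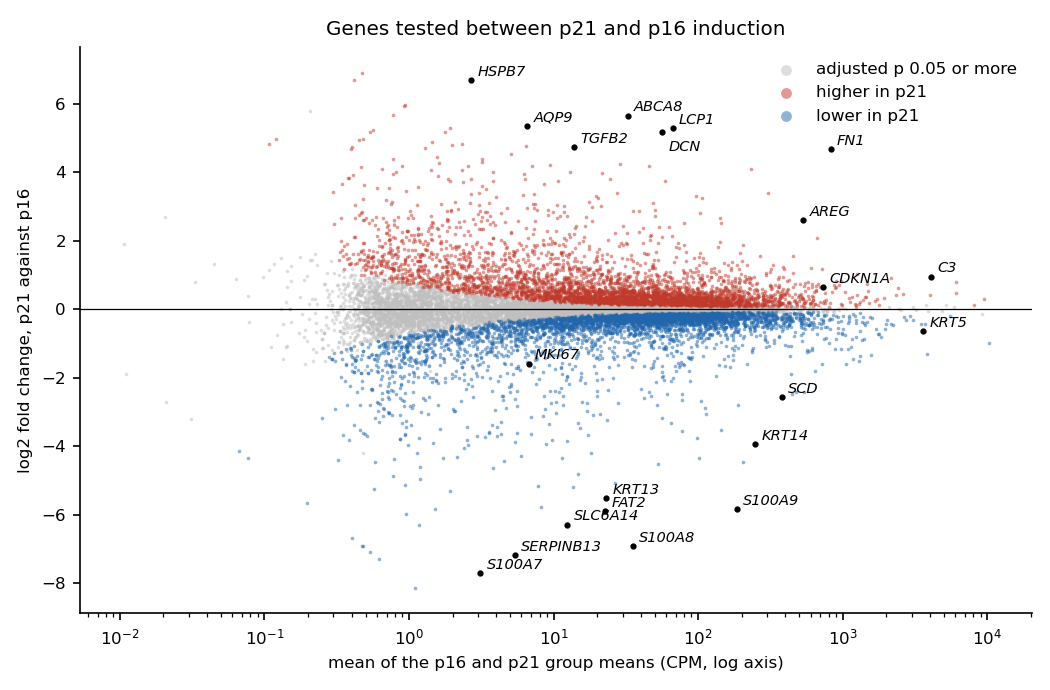
Each point is a gene tested: the horizontal axis is the mean of the p16 and p21 group means (CPM, log axis) and the vertical axis the log2 fold change of p21 against p16. Red points were higher and blue points lower in p21 at an adjusted p under 0.05. FN1 and AREG stand out among abundant genes that were higher in p21, and S100A9, KRT14 and SCD among those that were lower.

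The induced genes came first, as a check on the labels. CDKN1A, which encodes p21 (chromosome 6, 36676460 to 36687339 on GRCh38), was at 588, 587 and 536 CPM in the 3 p16 libraries and 871, 892 and 904 CPM in the 3 p21 libraries, without overlap. It was 1.56-fold higher in p21 (log2 fold change 0.64 ± 0.043, edgeR adjusted p = 9.12e-11), which is the direction the labels give, and the counts did not separate the construct from the cell's own gene. The mVenus cells had 712 ± 13 CPM, above p16 and below p21. CDKN2A, which encodes p16, and its neighbour CDKN2B, which encodes p15, had 0 counts in every library, the p16 libraries included. A count of 0 over the 3 p16 libraries allows a level of up to 0.0631 CPM for transcripts counted under these names, counting error only, and it checks nothing about the construct. CDKN2C, which encodes the CDK4 and CDK6 inhibitor p18, was at 1.62, 1.98 and 1.35 CPM in p16 and 5.65, 5.51 and 4.71 CPM in p21 (log2 fold change 1.67 ± 0.16, edgeR adjusted p = 1.88e-08).

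Proliferation genes were lower in p21 than in p16, although both groups were far below the mVenus cells. Of the genes of G2 phase and mitosis, 1 of 63 tested members were higher and 49 lower in p21, with a median log2 fold change of -1.08, against 27.2% of all genes in each direction. MKI67, the gene of the proliferation antigen Ki-67, was at 10.1, 10.5 and 9.69 CPM in the 3 p16 libraries and 3.15, 3.84 and 3.06 CPM in the 3 p21 libraries (log2 fold change -1.59 ± 0.11, edgeR adjusted p = 2.51e-10). Both sets stood far under the 331 ± 15.6 CPM (SD, n = 3) of the mVenus cells. In bulk RNA, fewer cells still dividing and less of the transcript in each cell cannot be told apart. PLK1, a kinase that drives mitotic entry, was at 18.6, 21.5 and 19.2 CPM in p16 and 3.82, 3.47 and 3.06 CPM in p21 (log2 fold change -2.52 ± 0.11, edgeR adjusted p = 7.21e-14). CDC20, which activates the anaphase-promoting complex, went with it, at 7.3, 8.83 and 7.04 CPM in p16 and 1.17, 1.24 and 1.27 CPM in p21 (log2 fold change -2.64 ± 0.16, edgeR adjusted p = 1.84e-11). DLGAP5, a spindle protein, was at 2.18, 1.84 and 1.56 CPM in p16 and 0, 0.186 and 0.573 CPM in p21 (log2 fold change -2.79 ± 0.40, edgeR adjusted p = 6.3e-06), and its fold change without p21 replicate 3 was -4.11. BUB3, a spindle checkpoint protein, was the member of this list that was higher in p21 (0.42 ± 0.042).

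Many promoters of these mitotic genes hold the letters TTTGAA, the core of the cell cycle homology region (CHR), which is bound by the DREAM and MYBL2 complexes. The stretches below, 60 bases each on the strand of the gene and ending at or before its annotated start, show the match in 5 members that fell. They come from the RefSeq promoters of GRCh38.p14, and capitals mark each match to TTTGAA or to its reverse complement.
PLK1, chr16:23678829-23678888, plus strand: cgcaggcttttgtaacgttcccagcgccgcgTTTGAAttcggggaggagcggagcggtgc
CDC20, chr1:43358889-43358948, plus strand: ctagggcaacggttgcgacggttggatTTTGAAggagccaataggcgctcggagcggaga
DLGAP5, chr14:55191662-55191721, minus strand: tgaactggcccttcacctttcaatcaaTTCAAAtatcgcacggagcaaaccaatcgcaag
MKI67, chr10:128126424-128126483, minus strand: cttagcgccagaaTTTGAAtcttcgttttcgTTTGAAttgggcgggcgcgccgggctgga
HMMR, chr5:163460572-163460631, plus strand: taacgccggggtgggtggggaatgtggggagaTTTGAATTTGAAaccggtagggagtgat
Promoters of 53 of the 63 tested members were matched, and 36 of them (67.9%) held the letters on either strand in the window from 250 bases before to 50 bases after the start. Of all 27305 promoters of that length 15.4% held them, and of the 10044 genes tested here that had a promoter 9.79%. Among the 36 members with a match 27 fell, with a median log2 fold change of -1.21, and among the 17 without one 15 fell, with a median of -1.08. Members with and without the letters thus had similar medians. A match describes letters and not a bound site.

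Most replication genes were lower too, with a few exceptions. In the DNA replication list, 5 of 49 tested members were higher and 32 lower in p21, with a median log2 fold change of -0.42. MCM10, which helps to start replication forks, was at 1.06, 1.19 and 0.88 CPM in p16 and 0.22, 0.248 and 0.191 CPM in p21 (log2 fold change -2.21 ± 0.34, edgeR adjusted p = 1.41e-05), and RRM2, a subunit of ribonucleotide reductase, at 3.37, 4.35 and 4.74 CPM in p16 and 1.54, 1.3 and 1.15 CPM in p21 (log2 fold change -1.64 ± 0.20, edgeR adjusted p = 5.23e-07). PCNA, the sliding clamp to which p21 binds, was instead higher in p21, at 27.6, 28.2 and 32.6 CPM in p16 and 39.8, 39.5 and 39.1 CPM in p21 (log2 fold change 0.42 ± 0.067, edgeR adjusted p = 1.89e-05). TYMS, thymidylate synthase, rose as well (1.23 ± 0.26), although 46.6% of its exonic bases overlap another gene and the counting did not use strand.

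The D cyclins moved in both directions. CCND1, the cyclin D1 gene, was at 462, 449 and 465 CPM in the 3 p16 libraries and 755, 762 and 787 CPM in the 3 p21 libraries (log2 fold change 0.74 ± 0.031, edgeR adjusted p = 3.91e-14), while CCND3 was at 312, 306 and 279.7 CPM in p16 and 197, 202 and 193 CPM in p21 (log2 fold change -0.60 ± 0.048, edgeR adjusted p = 1.58e-09) and CCND2 stood lower by less (-0.24 ± 0.057). CDK4 and CDK6, the partners of the D cyclins, did not pass the test (0.12 ± 0.073 and 0.12 ± 0.061), although CDK6 did without p16 replicate 3 (edgeR adjusted p 0.0474 to 0.355 over the alternatives). Other genes cover 43.2% of the exons of CDK4 and 37.1% of those of CCNE2. In the list of cyclins A, B and E with their kinases, 1 of 15 tested members were higher and 12 lower in p21, with a median log2 fold change of -0.76. CDC25B, a phosphatase that activates CDKs, was at 91.4, 87.6 and 85.5 CPM in p16 and 24.3, 24.7 and 25.3 CPM in p21 (log2 fold change -1.83 ± 0.055, edgeR adjusted p = 2e-16), and its p16 level was above the 73.9 ± 1.75 CPM of mVenus. CKS1B, a small CDK subunit, also fell (-1.36 ± 0.090), CDK2 rose slightly (0.37 ± 0.093), and CCNE2 did not pass (-0.76 ± 0.43, edgeR adjusted p = 0.142) other than without p16 replicate 3 (0.0432 to 0.387 over the alternatives).

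Of the DREAM complex with MYBL2 and FOXM1 1 of 7 members were higher in p21 and 4 lower. The fall of FOXM1, named after its values were seen, was lost in 7 of 12 alternatives (edgeR adjusted p = 0.0415, 0.03 to 0.145 over the alternatives), and the rise of LIN52 with DESeq2 (adjusted p = 0.0838). MYBL2, a partner of the DREAM core in cycling cells, was at 2.56, 2.9 and 2.3 CPM in p16 and 0.954, 0.619 and 0.191 CPM in p21 (log2 fold change -2.16 ± 0.27, edgeR adjusted p = 1.07e-06), and LIN9 and LIN37 of the core also fell (-0.47 ± 0.12 and -1.10 ± 0.28), LIN37 with another gene over 54% of its exons. Of the RB and E2F family 3 of 12 members were higher (RB1, RBL1 and TFDP2) and 1 lower (E2F8). RB1 was at 96.8, 99.1 and 115 CPM in p16 and 115, 117 and 112 CPM in p21, and although it passed the test (edgeR adjusted p = 0.0405) the libraries overlapped and the call was lost in 6 alternatives, 5 of which left out a library (p16 replicate 1 or 2, or any p21 replicate). Over the alternatives its adjusted p ran from 0.000564 to 0.187. RBL1, which encodes the pocket protein p107, lost its call in 3 alternatives (adjusted p 0.00463 to 0.0734). E2F8, a repressor of the E2F family, was at 0.935, 0.527 and 0.88 CPM in p16 and 0.0734, 0.186 and 0.255 CPM in p21 (-2.11 ± 0.41).

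**Figure D2:**
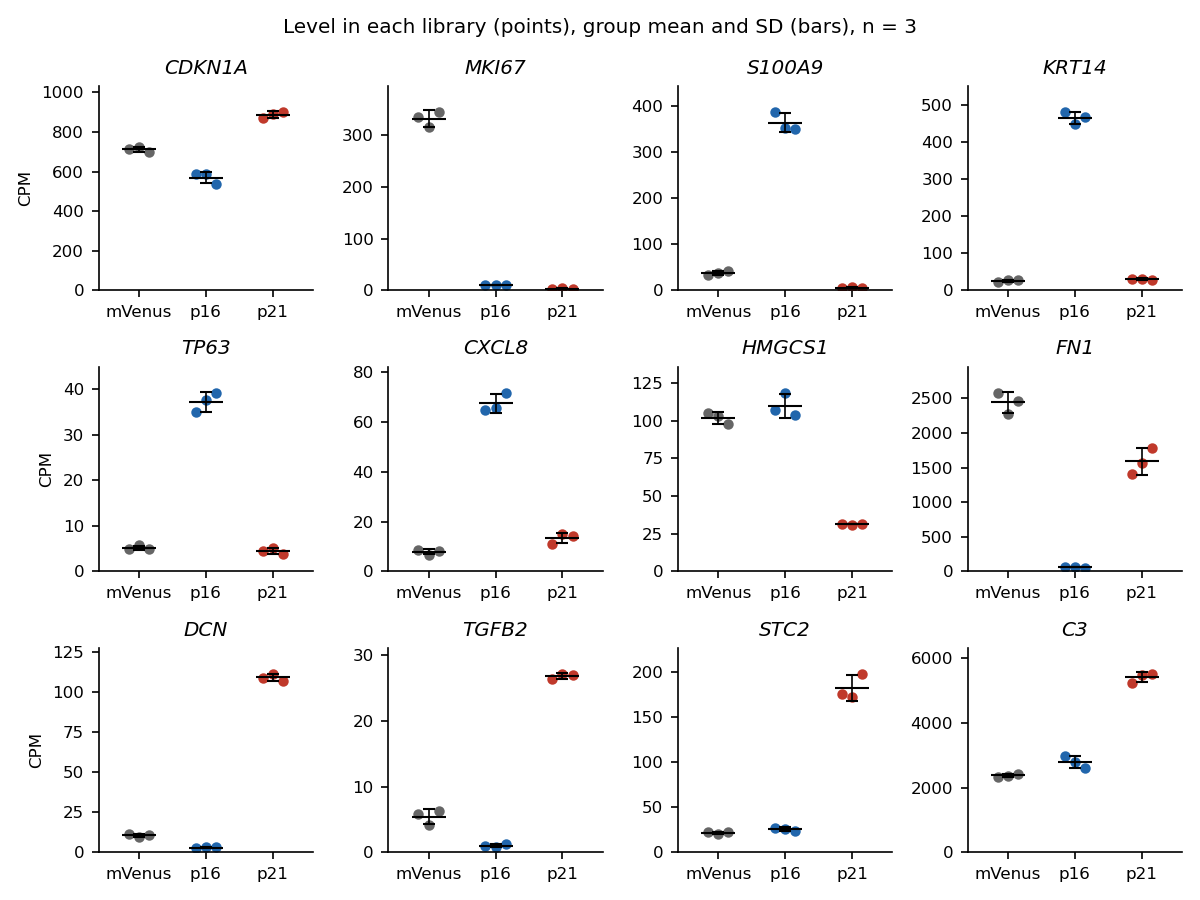
Level of 12 genes in each library (points, CPM, axes from 0) of mVenus, p16 and p21 cells, with the group mean and SD (bars, n = 3). S100A9, KRT14, TP63 and CXCL8 are high in p16, HMGCS1 is low in p21, and DCN, TGFB2, STC2 and C3 are high in p21. FN1 is lowest in p16, and in p21 it is also under mVenus, by less.

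The p16 cells held more transcripts of a keratinising epithelium. Of the cornified envelope and keratinocyte defence list, 5 of 28 tested members were higher and 20 lower in p21, with a median log2 fold change of -1.21, and 15 fell by 2-fold or more. S100A9 (chromosome 1, 153357854 to 153361027), a subunit of the calcium-binding alarmin calprotectin, was at 387, 352 and 350.0 CPM in the 3 p16 libraries and 5.65, 7.49 and 5.8 CPM in the 3 p21 libraries (log2 fold change -5.84 ± 0.090, edgeR adjusted p = 6.68e-21). Its partner S100A8 was at 72.9, 71.5 and 65.9 CPM in p16 and 0.587, 0.557 and 0.573 CPM in p21 (log2 fold change -6.92 ± 0.13, edgeR adjusted p = 1.07e-19). S100A7, or psoriasin, had 287 counts over the 3 p16 libraries and 1 over the 3 p21 libraries, a ratio of 277 (exact 95% interval 49.3 to 10970, counting error only). For these 3 genes mVenus lay between the groups, so p16 stood above it and p21 below it. The mVenus cells had 38 ± 3.91 CPM of S100A9, 6.52 ± 0.526 CPM of S100A8 and 1.425 ± 0.292 CPM of S100A7. Of the S100 genes none was higher in p21 by edgeR's test, at an unadjusted p under 0.05 or by DESeq2. Lower in p21 were 11 of 14 tested, with a median log2 fold change of -0.80. The envelope genes that went the other way were CST6 (2.15 ± 0.080), CRCT1 (1.39 ± 0.17), TGM5 (1.15 ± 0.21), FLG (at 1.01 and 2.07 CPM on average in p16 and p21) and ALOX15B (0.22). CST6 encodes a cysteine protease inhibitor, TGM5 a transglutaminase and FLG filaggrin.

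Promoters of 17 of the 28 tested members of this list were matched, and 9 of them (52.9%) held the AP-1 letters TGANTCA, against 4.93% of the genes tested here and 7.76% of all promoters. Of the 9 with a match 7 fell (median log2 fold change -2.53), and of the 8 without one 6 fell (median -1.69). The stretches of 3 members among those that fell most show the match in capitals on the strand of the gene, again from RefSeq on GRCh38.p14.
SPRR1A, chr1:152983946-152984005, plus strand: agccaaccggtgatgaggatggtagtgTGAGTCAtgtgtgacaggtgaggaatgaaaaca
SPRR1B, chr1:153031065-153031124, plus strand: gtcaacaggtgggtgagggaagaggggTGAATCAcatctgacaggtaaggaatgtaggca
CLCA2, chr1:86423984-86424043, plus strand: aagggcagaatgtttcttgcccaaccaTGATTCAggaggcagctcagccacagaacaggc
SPRR1A and SPRR1B encode small proline-rich proteins that are cross-linked into the envelope, and CLCA2 an epithelial membrane protein. Their log2 fold changes were -3.37 ± 0.37, -3.04 ± 0.15 and -3.52 ± 0.067, and these 3 genes were chosen after their values were seen. Of the list of AP-1 and other immediate early factors 2 of 20 were higher and 10 lower, with FOSL2 the highest (0.53 ± 0.041) and NR4A1 the lowest (-1.84 ± 0.16).

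Keratins and the factors of basal identity moved with the envelope genes. KRT14 (chromosome 17, 41582279 to 41586921), a keratin of basal cells, was at 482, 450.0 and 467 CPM in the 3 p16 libraries and 32, 32.1 and 27.2 CPM in the 3 p21 libraries (log2 fold change -3.94 ± 0.069, edgeR adjusted p = 5.81e-20), against 25.6 ± 2.42 CPM in mVenus. KRT13, a keratin of stratified mucosa, was at 50.5, 42.6 and 42.3 CPM in p16 and 1.17, 1.18 and 0.637 CPM in p21 (log2 fold change -5.50 ± 0.17, edgeR adjusted p = 4.33e-16), and KRT15 at 796, 813 and 800.2 CPM in p16 and 159, 151 and 143 CPM in p21 (log2 fold change -2.41 ± 0.059, edgeR adjusted p = 1.02e-17). TP63, the transcription factor p63 that maintains basal cells, was at 35, 37.5 and 39.3 CPM in p16 and 4.4, 5.08 and 3.89 CPM in p21 (log2 fold change -3.06 ± 0.10, edgeR adjusted p = 1e-15). In the list of basal and stratified keratins 11 of 15 were lower and 1, KRT81, was higher by little (0.12 ± 0.046), a call lost in 4 alternatives (adjusted p 0.0013 to 0.119). Keratin genes are close copies, so reads may be split between neighbours. Of the basal identity list 10 of 18 were lower and 4 higher, FGFBP1, a carrier of fibroblast growth factors, being the lowest (-5.08 ± 0.11) and MME, a peptidase of myoepithelial cells, the highest (1.61 ± 0.053).

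Basal and luminal markers were both lower in p21. All 4 markers of mammary basal cells (KRT5, KRT14, KRT17 and TP63) and all 5 of luminal cells (KRT8, KRT18, KRT19, EPCAM and MUC1) were lower in p21, with medians of -2.19 and -0.61. KRT5, named after its values were seen, was at 4559, 4266 and 4379 CPM in p16 and 2747, 2877 and 2836 CPM in p21 (log2 fold change -0.64 ± 0.031, edgeR adjusted p = 4.13e-13) and was thus abundant in both groups. Of the wider list of simple keratins and luminal genes 10 of 13 were lower, the luminal factors ELF3 (-3.46 ± 0.13) and FOXA1 (-1.38 ± 0.069) among them. KRT7, a simple keratin, was higher (0.41 ± 0.035).

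Cell junction genes followed. Of the tight junction list 13 of 17 were lower and none was higher by edgeR's test, at an unadjusted p under 0.05 or by DESeq2, although 1 was in another alternative. The median was -0.52. CDH1, the gene of E-cadherin, was at 1505, 1549 and 1470 CPM in p16 and 684, 691 and 639 CPM in p21 (log2 fold change -1.17 ± 0.041, edgeR adjusted p = 2.22e-15), and CLDN4, a claudin, at 219, 219 and 198 CPM in p16 and 60.7, 54.1 and 50.6 CPM in p21 (log2 fold change -1.95 ± 0.077, edgeR adjusted p = 1.81e-14). Of the desmosome genes 7 of 10 were lower. DSG3, a desmosomal cadherin of stratified epithelium, was at 1514, 1575 and 1645 CPM in p16 and 528, 519 and 509 CPM in p21 (log2 fold change -1.61 ± 0.040, edgeR adjusted p = 1.39e-17), and PERP, a desmosomal protein that is also a p53 target, at 1800, 1939 and 2033 CPM in p16 and 694, 674 and 669.9 CPM in p21 (log2 fold change -1.50 ± 0.040, edgeR adjusted p = 3e-17). The exception was DSG2, a desmosomal cadherin that simple epithelia also use (0.18 ± 0.033). For CDH1 the p21 libraries stood at the mVenus level of 687 ± 28.2 CPM, and p16 was the group apart.

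Of 6 kallikreins 4 were lower and 2, KLK7 and KLK14, higher. KLK5, a kallikrein that sheds surface cells, was at 357, 317 and 307 CPM in p16 and 153, 147 and 130.2 CPM in p21 (log2 fold change -1.19 ± 0.068, edgeR adjusted p = 6.26e-12), whereas KLK7, which KLK5 activates, was at 246, 230.5 and 216 CPM in p16 and 589, 550.5 and 494 CPM in p21 (log2 fold change 1.24 ± 0.069, edgeR adjusted p = 4.7e-12). Of the serpins, which inhibit serine proteases, 9 of 13 were lower in p21. SERPINB13 had 492 counts in p16 and 3 in p21, a ratio of 158 (exact 95% interval 53.8 to 769, counting error only). PLAU, the urokinase gene, was at 120.2, 129 and 104 CPM in p16 and 12.5, 11.4 and 11.3 CPM in p21 (log2 fold change -3.33 ± 0.092, edgeR adjusted p = 5.58e-17), although another gene covers 31.1% of its exons, and its receptor PLAUR also fell (-1.12 ± 0.067). Of the matrix protease list 12 of 17 were lower and 5 higher, MMP2 (2.35 ± 0.42) and TIMP2 (0.81 ± 0.033) being examples of the latter.

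**Figure D3:**
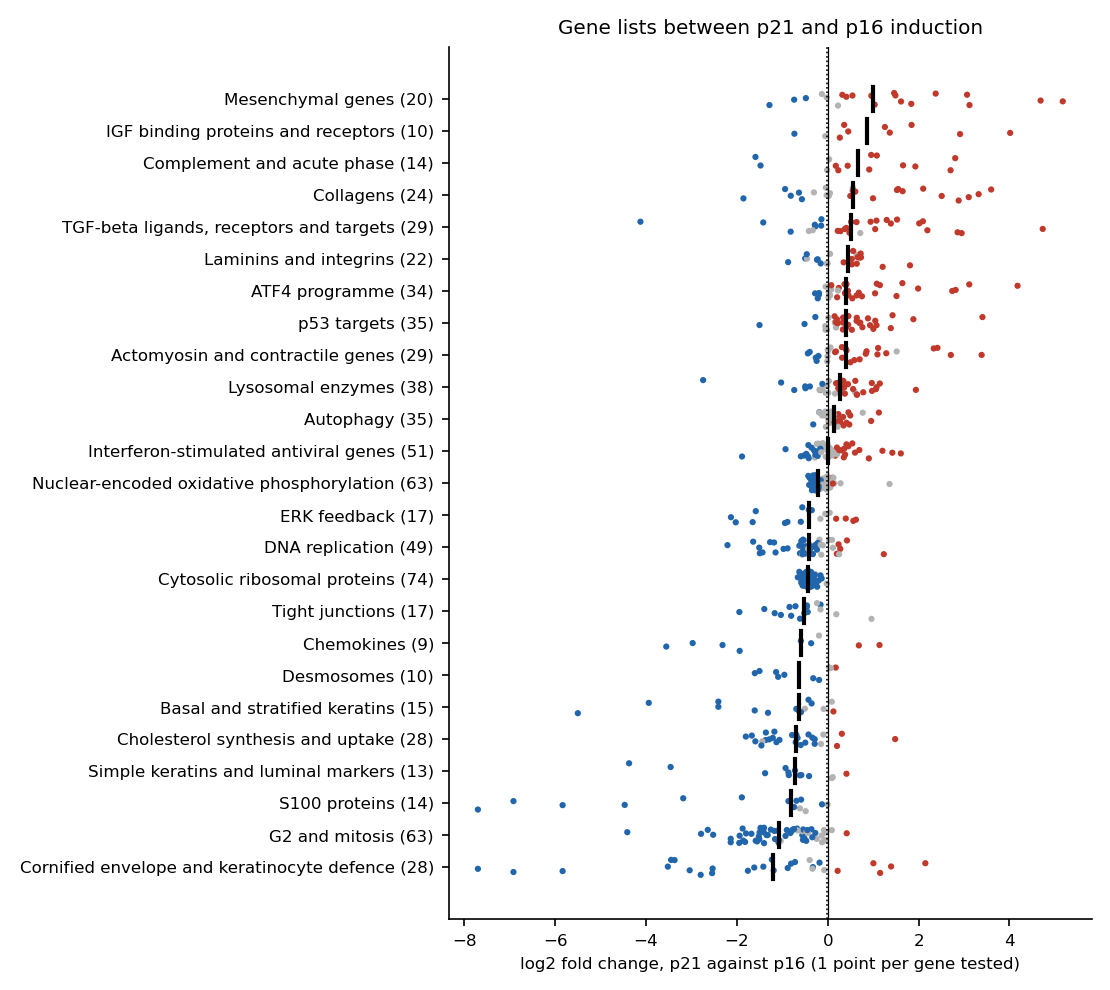
Log2 fold change of p21 against p16 for each tested member of 25 gene lists (1 point per gene, number tested in brackets), with the list median as a black bar and the median of all genes as a dotted line. Red and blue points were higher and lower in p21 at an adjusted p under 0.05, and grey points did not pass. Mesenchymal genes have the highest median and the cornified envelope list the lowest.

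Matrix and mesenchymal genes were higher in p21. Of the mesenchymal list, 14 of 20 tested members were higher and 3 lower in p21, with a median log2 fold change of 0.997. FN1 (chromosome 2, 215360440 to 215436172), which encodes fibronectin, was at 63.7, 65.4 and 55.9 CPM in the 3 p16 libraries and 1411, 1567 and 1790 CPM in the 3 p21 libraries, a 25.8-fold difference (log2 fold change 4.69 ± 0.10, edgeR adjusted p = 1.4e-18). The mVenus cells had 2440 ± 152 CPM, so p16 stood far under mVenus (log2 fold change -5.31 ± 0.10) and p21 nearer to it (-0.62 ± 0.081). DCN, the small proteoglycan decorin, was at 2.81, 3.1 and 3.18 CPM in p16 and 109, 112 and 107 CPM in p21 (log2 fold change 5.17 ± 0.075, edgeR adjusted p = 6.68e-21), and here p21 stood above the 10.7 ± 0.988 CPM of mVenus. MCAM, a cell adhesion molecule, was at 3.93, 3.69 and 3.18 CPM in p16 and 31.7, 33.1 and 29.5 CPM in p21 (log2 fold change 3.12 ± 0.098, edgeR adjusted p = 4.03e-16). Both groups stood under the 189 ± 7.76 CPM of MCAM in mVenus. The members that fell were TNC (-1.28 ± 0.16), S100A4 (-0.74 ± 0.12) and NT5E (-0.48 ± 0.046).

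Markers of fibroblasts were looked at beside these genes. Of 6, 3 had enough counts to be tested: DCN and PDGFRB (1.61 ± 0.48) were higher in p21 and COL1A1 did not pass (-0.02 ± 0.18). COL1A2 had 0 counts in every library, PDGFRA had 2 counts in p16 and 4 in p21, and LUM 0 and 8. Their summed level was 6.98 to 7.36 CPM in the p16 libraries and 111 to 117 in the p21 libraries. DCN made up nearly all of it in p21, whereas in p16 COL1A1 (3.92 CPM on average) stood above DCN (3.03 CPM). The libraries were all from cultures of the MCF10-A line, and the presence of fibroblasts was not tested beyond these markers.

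Collagens leaned to p21 as well. Of the collagens and their modifying enzymes, 13 of 24 tested members were higher and 5 lower in p21, with a median log2 fold change of 0.55. COL4A1 and COL4A2, a head-to-head gene pair that encodes the main chains of basement membrane collagen, rose alike (3.10 ± 0.075 and 3.32 ± 0.078). COL4A2 was at 19.4, 15.9 and 17 CPM in p16 and 171, 168 and 185 CPM in p21 (log2 fold change 3.32 ± 0.078, edgeR adjusted p = 5.87e-18). For this pair both groups stood under mVenus, at 320 ± 10.2 CPM (COL4A1) and 569 ± 24 CPM (COL4A2). The log2 fold changes of p21 against mVenus were -1.86 ± 0.051 and -1.70 ± 0.058, and p16 was lower still. COL6A2 had few counts in p16 (3.60 ± 0.30), and its fold change without p16 replicate 1 was 4.25. COL13A1, COL7A1 and LOXL1 were lower (-1.86 ± 0.082, -0.81 ± 0.16 and -0.94 ± 0.15). Of the laminins and integrins 11 of 22 were higher and 6 lower, the falls being near the 27.2% of all genes that were lower. ITGB2, the beta chain of leukocyte integrins, was at 66.2, 57.4 and 59.7 CPM in p16 and 221, 214 and 209.7 CPM in p21 (log2 fold change 1.81 ± 0.052, edgeR adjusted p = 9.98e-17). Among the lower ones were ITGB4 of the hemidesmosome and ITGB8 (-0.46 ± 0.039 and -0.87 ± 0.074).

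The TGF-beta system rose with the matrix. Of its ligands, receptors and targets, 19 of 29 tested members were higher and 7 lower in p21, with a median log2 fold change of 0.52. The ligand gene TGFB2 (chromosome 1, 218346235 to 218444619) was at 0.935, 0.79 and 1.29 CPM in the 3 p16 libraries and 26.3, 27.2 and 26.9 CPM in the 3 p21 libraries (log2 fold change 4.73 ± 0.17, edgeR adjusted p = 3.82e-15). CTGF, a matricellular protein, was at 9.04, 8.1 and 8.6 CPM in p16 and 58.4, 59.9 and 68.5 CPM in p21 (log2 fold change 2.86 ± 0.092, edgeR adjusted p = 5.57e-16), and SMAD6, an inhibitor of BMP signalling, at 1.68, 1.32 and 1.49 CPM in p16 and 12.1, 11.4 and 11.4 CPM in p21 (log2 fold change 2.95 ± 0.15, edgeR adjusted p = 7.78e-13). CTGF still stood below mVenus in p21, at 62.3 against 116 CPM. LTBP2, which binds microfibrils, and INHBB, an activin subunit, fell (-0.82 ± 0.056 and -1.42 ± 0.42), the latter near 1 CPM and lost in 2 alternatives (adjusted p 0.00237 to 0.0581).

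Contractile genes and insulin-like growth factor (IGF) binding proteins were also higher. Of the actomyosin list, 18 of 29 tested members were higher and 5 lower in p21, with a median log2 fold change of 0.39. TAGLN, an actin-binding protein of smooth muscle, was at 14.7, 11.3 and 14 CPM in p16 and 83.7, 89.8 and 88.6 CPM in p21 (log2 fold change 2.71 ± 0.075, edgeR adjusted p = 5.61e-17), and FLNC, a filamin, at 5.24, 5.01 and 4.2 CPM in p16 and 49.4, 49.4 and 52.9 CPM in p21 (log2 fold change 3.39 ± 0.085, edgeR adjusted p = 1.39e-17). The cytoplasmic actin gene ACTG1 went the other way (-0.44 ± 0.036). Of the IGF binding proteins and receptors, 8 of 10 tested members were higher and 1 lower in p21, with a median log2 fold change of 0.85. IGFBP6 was at 12.8, 10.3 and 12.5 CPM in p16 and 88.2, 89.7 and 90.9 CPM in p21 (log2 fold change 2.91 ± 0.074, edgeR adjusted p = 1.75e-17), IGFBP4 rose from under 1 CPM (4.02 ± 0.28), and IGFBP2 was the member that fell (-0.73 ± 0.069).

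The EGF receptor family split, with 5 of 13 members higher and 7 lower. AREG, the EGF receptor ligand amphiregulin, was at 155, 143 and 151 CPM in the 3 p16 libraries and 898, 894 and 962 CPM in the 3 p21 libraries (log2 fold change 2.61 ± 0.057, edgeR adjusted p = 1.86e-18), and NRG1 and EREG also rose (1.52 ± 0.19 and 1.39 ± 0.14). The ligand TGFA and the receptor ERBB3 fell (-0.55 ± 0.044 and -1.66 ± 0.052). Genes that report on ERK activity were mostly lower: 10 of 17 fell and 4 rose. SPRY1, a feedback inhibitor of receptor tyrosine kinases, was at 12.9, 13 and 12.1 CPM in p16 and 3.67, 2.1 and 3.63 CPM in p21 (log2 fold change -2.03 ± 0.15, edgeR adjusted p = 5.47e-10), and DUSP7, an ERK phosphatase, fell too (-1.65 ± 0.058), while DUSP1 rose (0.62 ± 0.033). MYC, named after its values were seen, was at 336, 313 and 331 CPM in p16 and 104, 109 and 114 CPM in p21 (log2 fold change -1.58 ± 0.040, edgeR adjusted p = 1.39e-17), against 64.6 ± 0.201 CPM in mVenus.

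Wnt and Notch genes moved in both directions. WNT5A, a ligand of non-canonical Wnt signalling, was at 3.31, 3.62 and 4.74 CPM in p16 and 32.8, 37.2 and 40.4 CPM in p21 (log2 fold change 3.25 ± 0.11, edgeR adjusted p = 1e-15), and DKK1, a secreted inhibitor of the canonical pathway, at 34.7, 38 and 43.1 CPM in p16 and 237, 249 and 250.3 CPM in p21 (log2 fold change 2.67 ± 0.056, edgeR adjusted p = 1.04e-18). Over the Wnt list 12 of 28 were higher and 7 lower, the falls being near the 27.2% of all genes called in each direction. The receptor NOTCH3 was at 45, 44.3 and 37.5 CPM in p16 and 4.62, 4.39 and 4.59 CPM in p21 (log2 fold change -3.22 ± 0.10, edgeR adjusted p = 4.33e-16), and HES1, the repressor that Notch induces, at 41.9, 37.4 and 39.9 CPM in p16 and 7.12, 7.86 and 8.22 CPM in p21 (log2 fold change -2.36 ± 0.078, edgeR adjusted p = 9.48e-16). The ligand JAG2 and the receptor NOTCH2 rose (0.60 ± 0.054 and 0.44 ± 0.043). Over the Notch list 4 of 14 were higher, near that share, and 7 lower.

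Antiviral interferon-stimulated genes did not lean to either inhibitor. Of 51 tested, 16 were higher and 15 lower in p21, 31.4% and 29.4% beside 27.2% of all genes in each direction, and the median log2 fold change was -0.0039. MX2, a restriction factor, was at 5.74, 5.4 and 7.92 CPM in p16 and 19.7, 17.5 and 20.9 CPM in p21 (log2 fold change 1.61 ± 0.16, edgeR adjusted p = 3.15e-08), and HERC5, the ligase that attaches ISG15, at 15.5, 13 and 17.9 CPM in p16 and 34.4, 37.6 and 34.9 CPM in p21 (log2 fold change 1.20 ± 0.090, edgeR adjusted p = 5.37e-10). RSAD2, or viperin, was at 61.4, 56.5 and 77.4 CPM in p16 and 31.6, 34.6 and 36.1 CPM in p21 (log2 fold change -0.93 ± 0.10, edgeR adjusted p = 2.38e-07), and ISG20, a nuclease, at 19.9, 16.7 and 21.2 CPM in p16 and 12.2, 12.9 and 13.2 CPM in p21 (log2 fold change -0.59 ± 0.10, edgeR adjusted p = 5.09e-05). IFIT1, named after its values were seen, overlapped between groups at 838, 788 and 1046 CPM in p16 and 690.3, 748 and 822 CPM in p21 and did not pass (edgeR adjusted p = 0.072, 1.14e-09 to 0.362 over the alternatives, 4 of which passed), both far above the 46.1 ± 13.1 CPM of mVenus. Of the 40 members with a promoter 28 (70%) held the core letters of the interferon-stimulated response element on either strand, against 2.75% of the genes tested and 3.65% of all promoters, and of these 28 there were 10 higher and 8 lower.

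Among STAT and IRF factors and nucleic acid sensors 9 of 33 were higher and 12 lower, beside 27.2% of all genes in each direction. STAT2, part of the interferon-activated ISGF3 complex, was higher in p21 (0.49 ± 0.039). TMEM173, which encodes the DNA-sensing adaptor STING, was at 183, 182 and 166 CPM in p16 and 93.8, 87.8 and 84.2 CPM in p21 (edgeR adjusted p = 1.21e-12). TLR4, the endotoxin receptor, was at 0.125, 0.132 and 0.136 CPM in p16 and 4.18, 3.4 and 3.89 CPM in p21 (log2 fold change 4.79 ± 0.33, edgeR adjusted p = 1.59e-10). Of 12 antigen presentation genes 5 were lower and 3, B2M, HLA-B and HLA-C, higher (0.30 ± 0.055, 0.53 ± 0.053 and 0.41 ± 0.054), the HLA pair being near-identical in sequence to relatives and thus uncertain.

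The inflammatory secretome divided by gene. CXCL8, which encodes interleukin 8, was at 64.9, 65.4 and 71.7 CPM in the 3 p16 libraries and 11, 15.1 and 14.1 CPM in the 3 p21 libraries (log2 fold change -2.32 ± 0.092, edgeR adjusted p = 2.01e-14), against 7.91 ± 1.11 CPM in mVenus. CCL28, a mucosal chemokine, was at 141, 147 and 139 CPM in p16 and 12.3, 12.2 and 11.8 CPM in p21 (log2 fold change -3.55 ± 0.054, edgeR adjusted p = 6.68e-21), and CXCL10, which interferon induces, at 2.62, 3.75 and 4.67 CPM in p16 and 0.293, 0.681 and 0.382 CPM in p21 (log2 fold change -2.97 ± 0.36, edgeR adjusted p = 5.2e-07). CXCL1 went the other way, at 23.7, 22.3 and 27.6 CPM in p16 and 31.2, 39.8 and 46.8 CPM in p21 (log2 fold change 0.68 ± 0.10, edgeR adjusted p = 1.16e-05). Of 9 chemokines tested 6 were lower and 2 higher. IL6 could not be tested, with 2 counts in p16 and 4 in p21.

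Among interleukins and their receptors 9 of 22 were higher and 10 lower. CSF3, granulocyte colony-stimulating factor, was at 1.87, 2.77 and 1.83 CPM in p16 and 11.2, 13.5 and 13.6 CPM in p21 (log2 fold change 2.57 ± 0.16, edgeR adjusted p = 2.27e-11). The interleukin 1 receptor IL1R1 was at 17, 16.6 and 17.9 CPM in p16 and 78.4, 72.9 and 79.1 CPM in p21 (log2 fold change 2.16 ± 0.059, edgeR adjusted p = 4.3e-17), while its antagonist IL1RN was at 63.5, 62.5 and 66.8 CPM in p16 and 19.7, 20.7 and 20.4 CPM in p21 (log2 fold change -1.66 ± 0.060, edgeR adjusted p = 4.06e-15). The co-receptor IL1RAP fell as well (-1.33 ± 0.082).

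Complement genes were higher in p21 and the serum amyloid genes lower. Of the complement and acute phase list, 10 of 14 tested members were higher and 2 lower in p21, with a median log2 fold change of 0.68. C1R, a protease of the C1 complex, was at 18.9, 15.3 and 17.4 CPM in p16 and 60.9, 71.5 and 64.2 CPM in p21 (log2 fold change 1.93 ± 0.078, edgeR adjusted p = 2.32e-14), and SERPING1, its inhibitor, at 4.62, 4.28 and 4.47 CPM in p16 and 30, 28.8 and 28.5 CPM in p21 (log2 fold change 2.70 ± 0.094, edgeR adjusted p = 2.07e-15). C3, the central component, named after its values were seen, was at 2967, 2785 and 2612 CPM in p16 and 5237, 5477 and 5517 CPM in p21 (log2 fold change 0.96 ± 0.040, edgeR adjusted p = 3.46e-14). SAA1 was at 1108, 1070 and 1044 CPM in p16 and 338, 375 and 357 CPM in p21 (log2 fold change -1.59 ± 0.046, edgeR adjusted p = 1.13e-16), and its near-identical neighbour SAA2 moved alike (-1.48 ± 0.040), so that reads may be split between the pair. NF-kappaB genes moved little, with log2 fold changes from -0.63 to 0.54 over 16 genes.

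Markers of leukocytes and endothelium stood beside these immune genes as follows. The leukocyte markers CD3E and TYROBP had 0 counts in every library and PTPRC 0 in p16 and p21, CSF1R did not differ at the threshold (0.09 ± 0.051), and CD14 was lower (-0.72 ± 0.090). The summed level of the 6 leukocyte markers was 114.2 to 127.5 CPM in p16 and 108.1 to 110.7 in p21, mostly CSF1R. The 3 tested endothelial markers fell, ROBO4 from 18.8 to 23.3 CPM down to 0.743 to 1.32 CPM (-4.36 ± 0.19), whereas CDH5, the defining one, had 4 counts in p16 and 1 in p21. The summed endothelial level was 23.1 to 27.7 CPM in p16, mostly ROBO4 (21.8 CPM on average), and 2.60 to 3.67 in p21. All libraries were cultures of the MCF10-A line, and the presence of other cells was not tested beyond these markers.

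Transcriptional targets of p53 were higher in p21. Of 35 tested, 26 were higher and 3 lower, with a median log2 fold change of 0.40. CDKN1A, which the p21 construct encodes, is among them. EDA2R, a death receptor of the TNF receptor family, was at 9.11, 11.1 and 12.1 CPM in the 3 p16 libraries and 29.1, 29.5 and 27.9 CPM in the 3 p21 libraries (log2 fold change 1.43 ± 0.088, edgeR adjusted p = 2.41e-11), and KITLG, the ligand of the receptor KIT, at 2.99, 4.08 and 3.86 CPM in p16 and 13.2, 13.6 and 13.5 CPM in p21 (log2 fold change 1.89 ± 0.13, edgeR adjusted p = 9.11e-11). Of the BCL2 family, the p53-induced death genes BAX and BBC3 rose (0.93 ± 0.073, named after its values were seen, and 1.05 ± 0.14), and the death gene BIK and the BH3 gene BID fell (-1.03 ± 0.14 and -0.95 ± 0.064). The p53 targets that fell were PERP, PLK3 (-0.51 ± 0.063) and PLK2 (-0.27 ± 0.056).

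Genes of the ATF4 programme, which answers amino acid shortage and unfolded protein stress, were higher in p21. Of the list, 24 of 34 tested members were higher and 4 lower in p21, with a median log2 fold change of 0.41. PHGDH, the first enzyme of serine synthesis, was at 0.998, 0.659 and 0.542 CPM in the 3 p16 libraries and 14, 12.5 and 14.1 CPM in the 3 p21 libraries (log2 fold change 4.18 ± 0.19, edgeR adjusted p = 2.32e-13). The mVenus cells had 12.3 ± 0.979 CPM, close to p21, so that p16 was the low group. STC2, a secreted glycoprotein, was at 27.5, 26.4 and 23.6 CPM in p16 and 176, 172 and 198 CPM in p21 (log2 fold change 2.82 ± 0.065, edgeR adjusted p = 4.02e-18), and here p21 stood apart from both p16 and the 21.6 ± 1.1 CPM of mVenus. VLDLR also rose (3.12 ± 0.23). The amino acid transporters SLC38A2 and SLC7A1 and the synthetase NARS were lower by little (-0.19 ± 0.044, -0.28 ± 0.036 and -0.22 ± 0.040). The list of endoplasmic reticulum stress genes, chaperones and others, did not move with these: 5 of 22 were higher and 12 lower. MANF, a secreted stress protein, was at 53.3, 50.5 and 52.2 CPM in p16 and 26.6, 29.3 and 29.7 CPM in p21 (log2 fold change -0.86 ± 0.056, edgeR adjusted p = 5.38e-11). The fall of CANX, counted among the lower ones, was lost in 4 of 12 alternatives (adjusted p 3.1e-53 to 0.766). These left out p16 replicate 3 or p21 replicate 1, 2 or 3.

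Lysosomal enzymes leaned to p21, lysosomal membrane proteins to neither. Of the enzymes, 22 of 38 tested members were higher and 8 lower in p21, with a median log2 fold change of 0.28. FUCA1, the fucosidase that is also a p53 target, was at 31.3, 30.6 and 28.1 CPM in the 3 p16 libraries and 121, 111 and 114 CPM in the 3 p21 libraries (log2 fold change 1.94 ± 0.055, edgeR adjusted p = 7.61e-17), and ARSB and SMPD1 rose (1.15 ± 0.075 and 1.07 ± 0.053). The cathepsins CTSV, CTSS and CTSC fell (-2.74 ± 0.13, -1.03 ± 0.15 and -0.74 ± 0.046). GLB1, which encodes the beta-galactosidase stained as a senescence marker, was at 102, 103 and 92.5 CPM in p16 and 97.3, 97.2 and 94.3 CPM in p21 and did not pass (-0.05 ± 0.046, edgeR adjusted p = 0.418). Of the membrane proteins and proton pump subunits 7 of 26 were higher and 9 lower. Among autophagy genes 15 of 35 were higher and 2 lower, by small amounts, with GABARAPL1, which builds autophagosomes, at 43.8, 41.4 and 44.4 CPM in p16 and 82.1, 84.4 and 84.6 CPM in p21 (log2 fold change 0.95 ± 0.054, edgeR adjusted p = 5.57e-12).

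Antioxidant genes were divided, and FOXO genes leaned to p21. GCLC, the rate-limiting enzyme of glutathione synthesis, was at 107, 106 and 116 CPM in p16 and 290.3, 294 and 298 CPM in p21 (log2 fold change 1.42 ± 0.046, edgeR adjusted p = 6.2e-16), TXNRD1, a thioredoxin reductase, rose (1.29 ± 0.035), and SOD2, the mitochondrial superoxide dismutase, was at 333, 358 and 409.8 CPM in p16 and 782, 886 and 883 CPM in p21 (log2 fold change 1.21 ± 0.059, edgeR adjusted p = 5.47e-13). The aldehyde dehydrogenase ALDH3A1 and the peroxiredoxin PRDX5 fell (-2.42 ± 0.12 and -1.06 ± 0.037). Over the antioxidant list 13 of 37 were higher and 12 lower. FOXO1 was at 57.2, 60 and 58.6 CPM in p16 and 127, 141 and 134 CPM in p21 (log2 fold change 1.20 ± 0.046, edgeR adjusted p = 1.31e-14). Of the FOXO list 11 of 21 were higher and 5 lower, beside 27.2% of all genes in each direction. Those that fell were the factor FOXO4 (-0.50 ± 0.061), ERBB3 (-1.66 ± 0.052), KLF6 (-1.04 ± 0.042), TRIB1 (-0.44 ± 0.070) and TNFSF10 (-0.43 ± 0.10).

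Sterol synthesis was lower in p21. Of the cholesterol genes, 3 of 28 tested members were higher and 22 lower in p21, with a median log2 fold change of -0.70. HMGCS1 (chromosome 5, 43289395 to 43313512), which makes the precursor HMG-CoA, was at 107, 119 and 104 CPM in the 3 p16 libraries and 31.6, 31.1 and 31.7 CPM in the 3 p21 libraries (log2 fold change -1.80 ± 0.058, edgeR adjusted p = 5.28e-16). MVD, an enzyme of the mevalonate pathway, was at 79.1, 76.5 and 68.5 CPM in p16 and 23.5, 23 and 23.9 CPM in p21 (log2 fold change -1.67 ± 0.064, edgeR adjusted p = 1.06e-14). For HMGCS1 and MVD the p16 libraries stood near the 102 ± 4.04 and 76.8 ± 4.41 CPM of mVenus, so p21 was the low group. The members that rose were ABCA1, which exports cholesterol (1.48 ± 0.35), PMVK (0.31 ± 0.067) and SCAP (0.20 ± 0.055).

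Fatty acid genes were divided: 10 of 24 were higher and 11 lower, but the falls were larger, 6 of them reaching 2-fold against 1 of the rises. SCD, the desaturase that makes oleate, was at 633, 676 and 647 CPM in p16 and 115, 106 and 109 CPM in p21 (log2 fold change -2.57 ± 0.039, edgeR adjusted p = 6.68e-21). ACSL5, which activates fatty acids, was at 33, 32.5 and 37.6 CPM in p16 and 1.83, 1.92 and 1.85 CPM in p21 (log2 fold change -4.19 ± 0.12, edgeR adjusted p = 1.31e-16), and the desaturase FADS2 fell (-2.40 ± 0.090). The mVenus level lay under p16 and above p21 for SCD (329 ± 2.6 CPM) and ACSL5 (5.69 ± 1.02 CPM). For FADS2 it stood above both groups (53.3 ± 1.57 CPM). FADS1 and ACSL1 were higher in p21 than in p16 (0.84 ± 0.11 and 0.45 ± 0.032). FADS1 stood far under the 50.85 ± 0.495 CPM of mVenus in both, at 5.27 CPM in p16 and 9.46 CPM in p21. ACSL1 stood above the 309 ± 8.7 CPM of mVenus in both, at 398 CPM in p16 and 545 CPM in p21.

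Transcripts of cytosolic ribosomal proteins were lower in p21 in nearly every case. Of 74 tested, 72 fell and none rose by edgeR's test, at an unadjusted p under 0.05 or by DESeq2, with log2 fold changes from -0.66 to -0.02 and a median of -0.42. RPL24, of the large subunit, was at 441, 452 and 486 CPM in p16 and 302, 299 and 292 CPM in p21 (log2 fold change -0.63 ± 0.036, edgeR adjusted p = 8.21e-12). Together these transcripts took 2.75 ± 0.079% of counts in p21, 3.58 ± 0.068% in p16 and 2.77 ± 0.037% in mVenus (SD, n = 3 each). The p21 and p16 libraries did not overlap, and the exact two-sided permutation p of 0.1 is the smallest that 3 against 3 can give. By this share p21 stood beside mVenus, and p16 was the group apart.

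Most other lists of translation and energy genes also held more falls than rises. Translation factors fell in 19 of 35 and rose in 6, with TPT1 at -0.64 and the translation repressor EIF4EBP1 at 0.66. EIF3C was called higher (0.94 ± 0.36), but without p21 replicate 2 its log2 fold change was -0.09. Its call was lost in 5 of 12 alternatives, DESeq2 among them (adjusted p 2.34e-19 to 0.569). Nucleolar factors of ribosome assembly fell in 21 of 40 and rose in 2. Nuclear genes of oxidative phosphorylation fell in 40 of 63, with a median of -0.21, and rose in 2. The 13 mitochondrially encoded messages did not share that direction: 4 rose, MT-ND2 the most (0.48 ± 0.058), and 1, MT-ND6, fell (-0.20 ± 0.057), a call that 1 alternative ended (adjusted p 1.63e-07 to 0.0546).

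Glycolytic genes also tended lower, with 16 of 33 glycolysis and hypoxia genes down and 8 up, beside 27.2% of all genes in each direction. LDHA, lactate dehydrogenase, and the glucose transporter gene SLC2A1 fell (-0.72 ± 0.032 and -0.81 ± 0.048), whereas HIF1A, the hypoxia factor, named after its values were seen, rose (0.95 ± 0.056). Of the proteasome genes 16 of 31 were lower and 3 higher, with a median of -0.12. In the mTOR list 12 of 34 were higher and 10 lower. PRKAA2, a catalytic subunit of the energy sensor AMPK, was its most changed member, at 0.0624, 0.329 and 0.474 CPM in p16 and 5.87, 5.57 and 6.88 CPM in p21 (log2 fold change 4.39 ± 0.27, edgeR adjusted p = 1.95e-11).

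DNA repair lists held calls in both directions, to be read beside the 27.2% of all genes called in each direction. Of the homologous recombination and Fanconi anaemia genes 16 of 38 fell and 3 rose. BLM, a helicase, fell from a low level (-1.44 ± 0.31), and NBN of the break-sensing MRN complex rose (0.32 ± 0.054). End joining genes fell in 7 of 17 and rose in 3, among them TP53BP1, which shields broken ends (0.54 ± 0.049). Base excision and mismatch repair were even, with 5 of 20 higher and 4 lower. Checkpoint genes were even too (4 of 18 higher and 4 lower), with CHEK1 higher (0.36 ± 0.072).

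Lamin B1, whose loss is used as a marker of senescence, was lower still in p21. LMNB1 was at 4.62, 5.07 and 4.81 CPM in the 3 p16 libraries and 2.57, 2.17 and 1.21 CPM in the 3 p21 libraries (log2 fold change -1.30 ± 0.20, edgeR adjusted p = 1.29e-05), against 54.2 ± 4.22 CPM in mVenus. The histone chaperone ASF1B and the architectural protein HMGA2 fell (-1.91 ± 0.30 and -1.07 ± 0.11), and the heterochromatin protein CBX1 rose (0.39 ± 0.051). Over the lamina and chromatin list 12 of 26 were lower and 4 higher. Of the histone genes 8 of 19 were lower and 3 higher, none by 2-fold.

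Some of the largest differences belonged to genes outside these groups. LCP1, the actin-bundling protein L-plastin, was at 2.99, 3.75 and 3.12 CPM in the 3 p16 libraries and 134, 128 and 128 CPM in the 3 p21 libraries (log2 fold change 5.30 ± 0.081, edgeR adjusted p = 6.68e-21). ABCA8, a lipid transporter, was at 1.37, 1.38 and 1.02 CPM in p16 and 63.7, 64.9 and 63 CPM in p21 (log2 fold change 5.65 ± 0.12, edgeR adjusted p = 1.86e-18), and AQP9, a channel for water and glycerol, at 0.187, 0.264 and 0.474 CPM in p16 and 12.8, 12.8 and 13 CPM in p21 (log2 fold change 5.37 ± 0.22, edgeR adjusted p = 2.58e-14). HSPB7, a small heat shock protein, had 240 counts in p21 and 2 in p16, a ratio of 124 (exact 95% interval 34.1 to 1034, counting error only). SDK1, an adhesion molecule, and CLGN, a chaperone known from testis, also rose (4.75 ± 0.24 and 4.53 ± 0.27).

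In the other direction FAT2, an atypical cadherin of squamous epithelia, was at 47, 51.6 and 35.4 CPM in p16 and 0.66, 0.743 and 0.828 CPM in p21 (log2 fold change -5.89 ± 0.18, edgeR adjusted p = 3.55e-16). SLC6A14, an amino acid transporter, was at 26.5, 23.6 and 23.6 CPM in p16 and 0.147, 0.433 and 0.319 CPM in p21 (log2 fold change -6.28 ± 0.19, edgeR adjusted p = 1.64e-16), and A2ML1, a protease inhibitor of the epidermis, at 26.5, 28.2 and 25 CPM in p16 and 0.44, 0.743 and 0.956 CPM in p21 (log2 fold change -5.18 ± 0.17, edgeR adjusted p = 5.83e-16). GLDC, which cleaves glycine, was at 17.3, 14.2 and 14.4 CPM in p16 and 0.44, 0.309 and 0.51 CPM in p21 (log2 fold change -5.17 ± 0.19, edgeR adjusted p = 7.16e-15). ONECUT3, a homeobox factor, was at 15.3, 16.6 and 16.7 CPM in p16 and 0.367, 0.186 and 0.319 CPM in p21 (log2 fold change -5.78 ± 0.21, edgeR adjusted p = 4.67e-15). For SLC6A14 and A2ML1 the mVenus cells, at 0.318 and 1 CPM, resembled p21 in level, with log2 fold changes of p21 against mVenus of -0.02 ± 0.44 and -0.46 ± 0.30 that did not pass.

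The lists were also set against mVenus, to show which of the groups stood nearer to it. Both comparisons use the mVenus libraries, so their values are given side by side only. Against mVenus, 30.9% of genes were higher and 32.8% lower in p16, and 28.2% higher and 28.3% lower in p21. Of the 28 envelope genes 23 were higher in p16 (median log2 fold change 1.79) and 12 in p21 (median 0.06). Of the 74 ribosomal protein genes 71 were higher in p16 and 28 in p21 (medians 0.46 and 0.04). Mesenchymal genes were lower in p16 in 16 of 20 and in p21 in 11 (medians -1.47 and -0.36).

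Cholesterol genes stood nearer to mVenus in p16 than in p21, with 22 of 28 lower than mVenus (median -0.83) against 10 in p16 (median -0.03). The p53 targets were higher than mVenus in 25 of 35 in p21 and 14 in p16. All 63 tested genes of G2 and mitosis were lower than mVenus in both groups, with a median log2 fold change of -3.17 in p16 and -4.20 in p21. Antiviral interferon genes were higher than mVenus in 47 of 51 in p16 and 48 in p21 (medians 1.55 and 1.68).

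**Figure D4:**
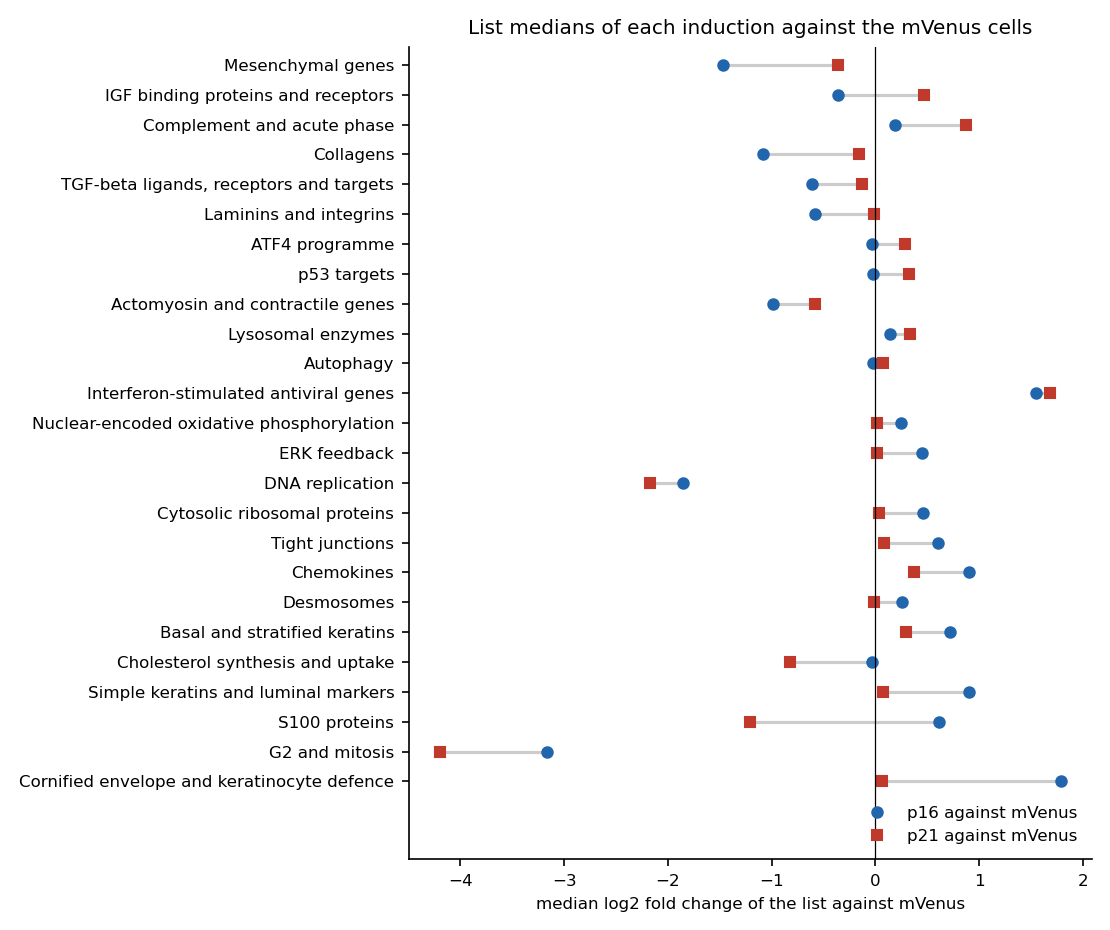
Median log2 fold change against mVenus of the tested members of each of 25 gene lists, for p16 (blue circles) and p21 (red squares), joined by a grey line, with the lists in the order of their median of p21 against p16. Both symbols lie far left for G2 and mitosis and far right for the antiviral interferon genes, and the gap is widest for the S100 proteins and the cornified envelope list.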

How the data were processed

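PolyA RNA was sequenced from stranded libraries, per the labels' protocols. The deposited counts per gene were made by the authors with featureCounts 1.6.3 on GENCODE 29 without use of strand, per the file headers. Per the submitters' processing notes, tools included FastQC 0.11.3, HISAT2, Subread and DESeq2, on GRCh38.p7. Their roles are not given in the sources used here. Gene coordinates are those of the deposited files on GRCh38.

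Groups were taken from the sample titles. The 12 libraries, Torin2 libraries included, entered 1 fit of edgeR 4.0.16 (R 4.3.3), with filterByExpr leaving 14504 of 57133 genes, TMM scaling, a quasi-likelihood test on 8 residual degrees of freedom and Benjamini-Hochberg adjustment over all genes tested. P-values measure the spread between libraries, and the biological coefficient of variation common to all genes was 3.94%. Total counts ran from 13168749 to 18321114 per library. Intervals and the floor of 3 counts cover counting error only.

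On simulated counts with 200 changed genes the test found 29.9% of the 67 changed 1.2-fold, 79.1% of the 67 changed 1.5-fold and 89.4% of the 66 changed 2-fold, with 9 false calls among 14053 unchanged genes. Far fewer genes were changed there than the 54.3% called in the data, so these rates need not hold for the reported calls.

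The genes compared and the gene lists were chosen with earlier results of these data known. Named are CDKN1A, CDKN2A, CDKN2B, MKI67, LMNB1, GLB1, RB1, CCND1, CDK4, CDK6, CCNE2, IL6 and CXCL8, the 10 largest rises and falls of at least 5 CPM without overlap, and up to 3 highest and 3 lowest called members per list of at least 1 CPM. Genes outside that rule are called so in the text, or belong to a marker list or a count of 5 or fewer. A few genes that the rule takes are not reported here. For CDKN1A the counting did not separate the construct from the cell's own gene, and CDKN2A had 0 counts in every library. Genes sharing over 30% of exonic bases with another gene, and near-identical copies, are uncertain. Alternatives were other scalings, filters and samples, the replicate number as a block, fits that lacked 1 library each, and DESeq2 1.42.0 with its Wald test. Promoters were RefSeq sequences of GRCh38.p14, matched by symbol and searched on both strands.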

Additional observations from a re-analysis of the deposited data

How the results depend on the processing

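The counts of genes higher (3944) and lower (3938) in p21 stayed within 1.5 times the reported ones in each alternative, from 3415 and 3449 with DESeq2's Wald test to 4015 and 3845 with upper quartile scaling, and the higher share of calls ran from 49.0% to 52.2%. Leaving out each library in turn gave 3673 to 3840 higher and 3532 to 3840 lower genes. No alternative moved the median of all genes by more than 0.0139 on the log2 scale. With the replicate number as a block 3876 genes were higher and 3866 lower. Deviations of same-numbered p16 and p21 libraries correlated with r of 0.028, 0.0361 and 0.056 across genes, so the numbers were not taken as pairs, although each library correlated best with its own number. Among 334 named or listed genes and 4326 values under alternatives, 4224 kept direction and call. The sign changed once, for EIF3C, whose log2 fold change was -0.0934 without p21 replicate 2 and up to 1.28 without other libraries. Values carried by 1 library were those of CANX (-0.48 without p16 replicate 3), PSMB3 (-0.13 without p16 replicate 2) and PSME2 (-0.60 without p16 replicate 3), and the cause was not tested. Depth limits genes under about 1 CPM, for which 3 counts over a group are 0.0655 CPM in p21 and 0.0631 CPM in p16.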

Other observations

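Several receptors, ligands and developmental factors not described so far differed between the groups. SOX9, a factor of epithelial progenitors, was at 87.6, 90.2 and 96 CPM in p16 and 14.5, 11.7 and 13.6 CPM in p21 (log2 fold change -2.79 ± 0.073, edgeR adjusted p = 2.79e-17), and NGFR, the neurotrophin receptor that marks myoepithelial cells, was also lower in p21 (-3.38 ± 0.56). Both were named after their values were seen. WNT6, a Wnt ligand, fell from a low level (-5.97 ± 0.61), and its log2 fold change without p21 replicate 2 was -7.88. TNFSF18, a ligand of the TNF family, fell (-3.44 ± 0.27), while PTX3, a soluble pattern recognition protein, rose (2.81 ± 0.19).

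Processed pseudogenes of ribosomal protein genes, copies that can take reads from their parents, were lower in 44 of 115 and higher in 2, with a median log2 fold change of -0.49. The other processed pseudogenes were lower in 123 of 725 and higher in 28, with a median of -0.17. Of the transcribed unprocessed pseudogenes 38 of 151 were higher and 6 lower, with a median of 0.23. Of all genes tested 27.2% were called in each direction. The 38 rises were near that share, and the falls of the other processed pseudogenes were below it.

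By chromosome the median log2 fold change of tested genes lay between -0.0443 (chromosome 18) and 0.0145 (chromosome 22).

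Of 14390 genes with at least 30 counts over the 6 libraries, 18 had over 60% of those counts in 1 library, and 9 of the 18 were among the called genes. These were TSTA3, with 85.6% of its counts in p16 replicate 1, CUTA (81.7%), CANX (76.8%), MTCH2 (72.2%), NOMO3 (71.9%), DCAF11 (71.1%), LENG8 (69%), RNH1 (66.8%) and SLC25A6 (64.1%), and they were named after their values were seen. The reason for such counts was not tested.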
